A study of Homo sapiens with 4 samples.

Results

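The AP-1 factor genes examined here are 10 members of the basic leucine zipper (bZIP) family, taken by name: FOS, FOSB, FOSL1, FOSL2, JUN, JUNB, JUND, ATF3, BATF and BATF3. All 10 were found among the 19974 protein-coding genes with distinct symbols on chromosomes 1 to 22 and X. Chromatin immunoprecipitation followed by sequencing had been carried out with antibodies to 3 histone marks in MCF10A, a human breast epithelial cell line that grows without limit but forms no tumours, and a library of input DNA was also made but is not analysed here. The H3K4me3, H3K79me2 and H3K27me3 libraries came from cells kept in MEGM, a mammary epithelial medium, that held cholera toxin at 100 ng/ml. There was 1 library per mark from 1 cell line and no treated or control group, so the values below are descriptions of these libraries with no replicate error and no test, and read depth is unknown.

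AP-1 is a dimeric transcription factor. JUN proteins pair with each other or with FOS proteins, FOS proteins need a JUN partner, and the ATF and BATF proteins join through the same kind of zipper. The dimers bind a short palindrome first defined by its response to phorbol esters (TRE) or the related cyclic AMP response element (CRE). Several of the genes are immediate-early genes, which growth factors and stress switch on within minutes through ERK and JNK kinases, and AP-1 is a leading regulator of epithelial enhancers. H3K4me3 marks active and poised promoters, H3K79me2 is laid down by DOT1L over the first part of transcribed genes, and H3K27me3 is the mark of Polycomb repression.

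The 300 bases from 250 before to 50 after a RefSeq start site (GRCh38.p14) are shown for 5 members, because the marks differed at these starts: FOS, FOSB, JUNB and JUN lay under H3K4me3, and BATF did not. Capitals mark the TRE (TGACTCA), the CRE (TGACGTCA), its TGACG core, the variant TGACATCA, all searched on both strands, and the TATAAA box on the strand of the gene. The TGACG core lies inside every CRE.

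FOS (chr14:75278578-75278877, + strand): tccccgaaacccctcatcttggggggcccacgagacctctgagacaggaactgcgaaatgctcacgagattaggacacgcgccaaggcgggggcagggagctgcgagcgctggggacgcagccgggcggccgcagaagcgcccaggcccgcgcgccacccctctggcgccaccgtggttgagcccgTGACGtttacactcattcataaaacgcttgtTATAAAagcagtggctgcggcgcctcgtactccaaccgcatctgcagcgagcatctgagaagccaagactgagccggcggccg
FOSB (chr19:45467746-45468045, + strand): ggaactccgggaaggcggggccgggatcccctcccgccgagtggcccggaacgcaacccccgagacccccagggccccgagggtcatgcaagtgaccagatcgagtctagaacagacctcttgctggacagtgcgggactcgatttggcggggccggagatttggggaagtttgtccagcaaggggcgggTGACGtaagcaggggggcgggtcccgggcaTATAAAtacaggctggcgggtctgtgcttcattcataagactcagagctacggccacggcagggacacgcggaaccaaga
JUNB (chr19:12791236-12791535, + strand): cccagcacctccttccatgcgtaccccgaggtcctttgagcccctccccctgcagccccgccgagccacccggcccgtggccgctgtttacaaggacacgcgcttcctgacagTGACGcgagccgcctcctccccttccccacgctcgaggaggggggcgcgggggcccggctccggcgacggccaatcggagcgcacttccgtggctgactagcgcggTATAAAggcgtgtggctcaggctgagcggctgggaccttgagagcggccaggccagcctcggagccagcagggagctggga
JUN (chr1:58783998-58784297, - strand): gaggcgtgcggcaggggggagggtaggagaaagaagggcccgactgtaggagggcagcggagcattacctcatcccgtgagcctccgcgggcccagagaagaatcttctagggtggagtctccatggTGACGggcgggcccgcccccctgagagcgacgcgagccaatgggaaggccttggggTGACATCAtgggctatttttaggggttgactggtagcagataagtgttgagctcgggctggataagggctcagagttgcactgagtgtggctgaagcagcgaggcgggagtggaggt
BATF (chr14:75522219-75522518, + strand): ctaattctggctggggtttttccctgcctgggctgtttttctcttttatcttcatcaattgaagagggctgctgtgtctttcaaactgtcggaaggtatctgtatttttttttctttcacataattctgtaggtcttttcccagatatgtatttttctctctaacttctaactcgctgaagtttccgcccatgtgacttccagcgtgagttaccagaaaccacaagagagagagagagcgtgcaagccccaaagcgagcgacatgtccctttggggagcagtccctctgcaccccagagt

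Of the 10 members, 8 matched the RefSeq promoter table, with 9 start sites in all (ATF3 has 2 there). FOSL1 and BATF3 are not among them. The TGACG core was found before the starts of FOS (bases -64 to -60 from the start), FOSB (-60 to -56), JUNB (-137 to -133), JUN (-123 to -119), FOSL2 and JUND, and JUND also had a complete CRE at -200 to -193. Of 22132 promoters of protein-coding genes, 27.9% held the core and 2.26% a CRE. TATAAA stood at -33 to -28 in FOS, -30 to -25 in FOSB and -31 to -26 in JUNB, and 6.47% of promoters held it. JUN, whose promoter is known for an autoregulatory element of this kind, had TGACATCA at -67 to -60, and the first start of ATF3 had the same letters at -123 to -116. These letters occurred in 2.12% of promoters. FOSL2 had a TRE just after its start at bases 4 to 10, where 4.01% of promoters held one anywhere. The second start of ATF3 had TATAAA at -230 to -225. The BATF window held none of these letters. The CArG box of serum response factor stood in 0 of the 9 windows, and 1.25% of promoters held it. Bases outside the windows were not searched, so these values do not show whether a CArG box lies further upstream of a member. The BATF window was 46.0% G and C with 7 CpG dinucleotides the first ATF3 window 48.0% with 4, and the second 46.3% with 1. The windows of FOS, FOSB, FOSL2, JUN, JUNB and JUND were 62.0% to 77.0% G and C with 16 to 49 CpG, where the median promoter had 62.3% and 21.0. A match describes letters and does not show binding.

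Peaks are given as the authors' caller reported them, with the authors' fold over the caller's background. For H3K4me3 and H3K27me3, a call needed 500 bp or more of peaks in the record plus 1000 bp on each side. For H3K79me2 it needed peaks over 25% or more of the record. A record is the span of the gene in the annotation. The family fell into 4 patterns. FOS, FOSL1, FOSL2, JUN, JUNB and JUND had H3K4me3 with H3K79me2 and no call for H3K27me3. FOSB had H3K4me3 with little H3K79me2. ATF3 and BATF3 had H3K4me3 with H3K27me3, and BATF had H3K4me3 at low fold inside its record and no other call.

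H3K4me3 was called at 10 of the 10 members, against 77.3% of all protein-coding genes. H3K79me2 was called at 6 of 10, against 42.0% of all genes, and H3K27me3 at 2 of 10, against 30.2%. Long records reach 500 bp more readily, and the members tend to be short, with a median record of 7840 bp against 24170 bp over all genes. Among the 5658 genes with records of at most 10000 bp, 55.5% were called for H3K4me3, 34.1% for H3K79me2 and 15.4% for H3K27me3. FOSL2, ATF3, BATF and BATF3 have longer records than this, and both members called for H3K27me3 are among them.

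**Figure D1:**
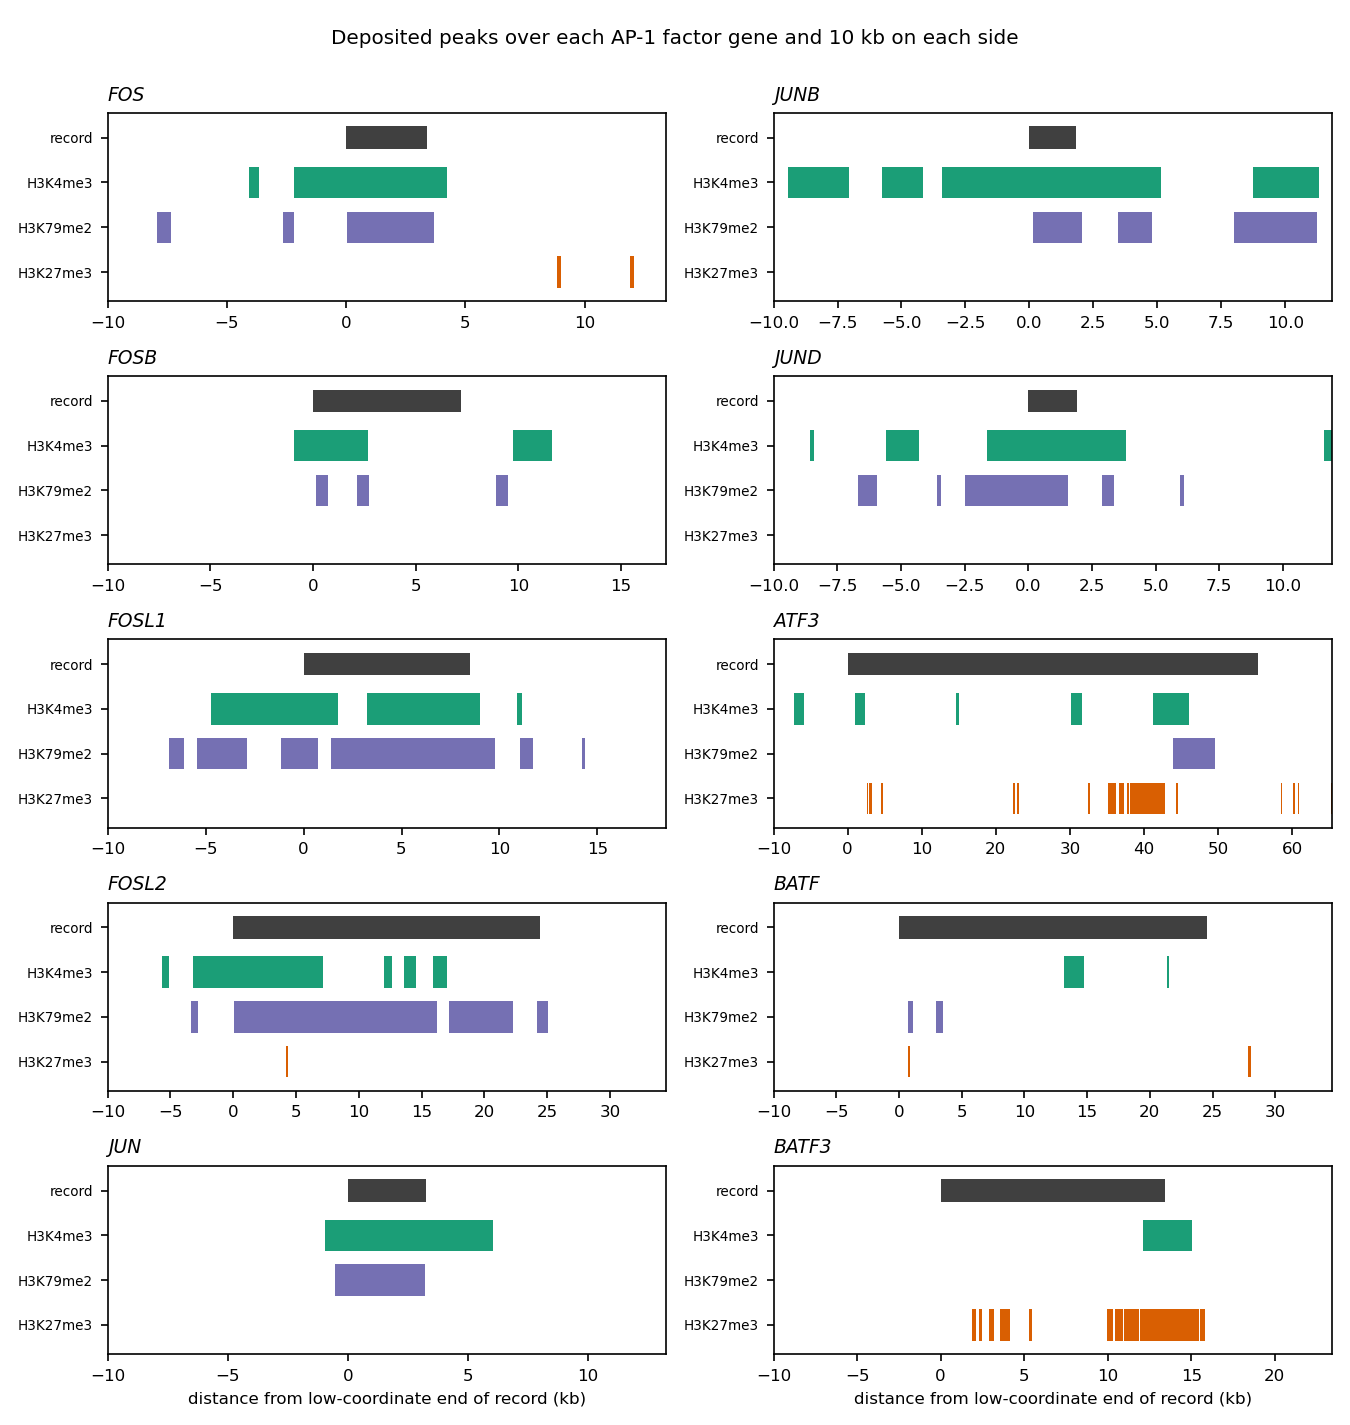
Deposited peaks of H3K4me3, H3K79me2 and H3K27me3 (rows, top to bottom under the gene record) over each member and 10 kb on each side. The horizontal axis is the distance in kb from the low-coordinate end of the record, with a separate scale per gene. Wide H3K4me3 blocks lie over FOS, FOSL1, FOSL2, JUN, JUNB and JUND, and blocks of H3K27me3 lie at ATF3 and BATF3.

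The FOS genes encode partners that bind DNA only with JUN proteins. FOS, the founding immediate-early member, lay under an H3K4me3 peak of 6429 bp and 15.0-fold at chr14:75276634-75283062, which covered 100% of its 3403 bp record. Its width ranked 1818 among the widest peaks of the 19974 genes, and its fold ranked 8737. H3K79me2 covered 98.4% of the record in a peak of 3633 bp and 3.44-fold that ended 284 bp past the record. In the 23403 bp window of the record and 10 kb on each side, H3K4me3 covered 29.3% and H3K27me3 1.41%, H3K27me3 being limited to 2 peaks of 165 bp more than 5000 bp past the gene.

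FOSB, the closest relative of FOS in the family, had an H3K4me3 peak of 3605 bp and 18.9-fold at chr19:45467075-45470679. The fold was higher than at FOS, and the peak was narrower and covered 37.4% of the record of 7184 bp. H3K79me2 at FOSB consisted of 2 peaks of 552 and 572 bp at 1.94- and 1.92-fold, which covered 15.6% of the record and both had -log10 q under 1. This is close to the median of 12.0% over all genes. FOSB was thus the member with strong H3K4me3 over its start and neither H3K79me2 nor H3K27me3 called, and no H3K27me3 peak lay within 10 kb of it.

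FOSL1, which encodes FRA1, had 2 wide H3K4me3 peaks. The peak of 5759 bp and 16.9-fold at chr11:65895303-65901061 covered the high-coordinate end, from which the gene is known to be transcribed. The wider peak of 6465 bp and 13.9-fold lay over the other end and also over CCDC85B, whose record ends 413 bp from that of FOSL1, so its width cannot be assigned to FOSL1. H3K79me2 covered 92.2% of the record, with a peak of 8343 bp and 4.47-fold. FOSL1 had no H3K27me3 peak in its record or within 10 kb, a window in which H3K79me2 covered 50.4%. The coding genes FIBP and CTSW also lie in that window.

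FOSL2, which encodes FRA2, had the widest H3K4me3 peak of the family. It measured 10286 bp and 21.1-fold at chr2:28389687-28399972, rank 286 in width and 1615 in fold, and 3 further peaks of 586 to 1120 bp at 2.32- to 2.51-fold followed inside the gene. H3K79me2 covered 88.0% of its 24460 bp record, mostly in a peak of 16150 bp at 5.06-fold, the highest H3K79me2 fold among the 10 members (rank 776 of all genes). A single H3K27me3 peak of 165 bp at 2.44-fold lay inside both. The antisense RNA gene FOSL2-AS1 overlaps the start of FOSL2, and peaks carry no strand, so marks over the shared part cannot be told apart.

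**Figure D2:**
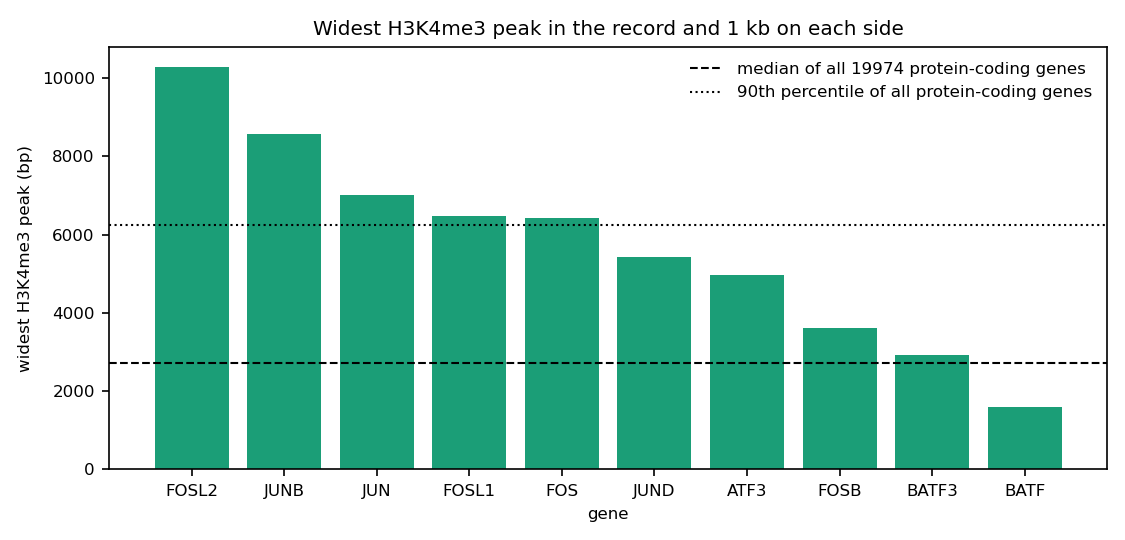
Width in bp of the widest H3K4me3 peak in the record and 1 kb on each side of each member (bars), with the median (dashed) and 90th percentile (dotted) over all 19974 protein-coding genes. FOSL2, JUNB, JUN, FOSL1 and FOS lie above the 90th percentile of 6244 bp, and BATF lies under the median of 2713 bp. The bars of FOSL1 and JUNB are peaks that also lie over CCDC85B and HOOK2. Those of FOSL2, JUN and JUND are peaks that also lie over non-coding genes. The FOSL1 peak over its high-coordinate end measures 5759 bp, under the 90th percentile.

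The JUN genes encode the subunits that every AP-1 dimer with a FOS protein contains. JUN had a single H3K4me3 peak within 10 kb, of 7022 bp and 20.3-fold at chr1:58779839-58786860, rank 1339 in width and 2248 in fold. It covered 100% of the intronless gene and ended 2813 bp past the record. It thus crossed the 1103 bp gap to JUN-DT, the divergent RNA gene, and ran into that gene, so its width does not belong to JUN alone. H3K79me2 was likewise a single peak, of 3739 bp and 3.57-fold over 98.6% of the record, and 0 peaks of H3K27me3 lay in the window.

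JUNB, known as a weaker activator that can restrain JUN, lay under an H3K4me3 peak of 8585 bp and 16.4-fold at chr19:12788052-12796636, rank 594 in width. The record of JUNB is 1830 bp long and overlaps that of HOOK2, and the peak covers the high-coordinate end of the HOOK2 record, so its width does not belong to JUNB alone. Within 10 kb lie PRDX2 and THSD8 as well, and H3K4me3 covered 69.4% of this window, the highest share of the family. H3K79me2 covered 92.0% of JUNB in a peak of 1907 bp and 3.28-fold. JUND, the JUN gene known for its steady expression, had the highest H3K4me3 fold of the members, 21.9 (rank 1070), in a peak of 5426 bp at chr19:18278090-18283515. H3K79me2 covered 80.6% of its record at 3.16-fold, from a peak of 4021 bp that ran past the end of the gene. The nearest coding gene, IQCN, is 5241 bp away. The H3K4me3 peak also lies over MIR3188 and part of LOC124904652, non-coding genes 454 and 469 bp from JUND. JUNB and JUND had 0 peaks of H3K27me3 in their windows.

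The records of FOS, JUN, JUNB and JUND were covered by H3K4me3 over their whole length. This was the case for 2.41% of all genes and for 8.48% of those with records of at most 10000 bp, a comparison added after the values were seen. These 4 genes have records of 1830 to 3403 bp. The median of the widest H3K4me3 peak was 5928 bp over the 10 members and 2713 bp over all genes. The members' value includes the FOSL1 and JUNB peaks that also lie over other protein-coding genes. It also includes the FOSL2, JUN and JUND peaks, which lie in part over non-coding genes. The median of the highest H3K4me3 fold was 17.9 over the members and 13.8 over all genes, whose 90th percentile was 20.6. For the covered share of the record by H3K79me2, the members' median was 84.3% and that of all genes 12.0%. The members were split, with FOSB, ATF3, BATF and BATF3 at 15.6% or less and the others at 80.6% or more. These shares depend on record length, with medians of 7840 bp for the members and 24170 bp for all genes. ATF3, at 10.1% of a 55371 bp record, had an H3K79me2 peak of 5606 bp. That is wider than those of FOS (3633 bp), JUN (3739 bp), JUNB (1907 bp) and JUND (4021 bp). FOSL1 and FOSL2 had wider ones, and BATF3 had 0 bp.

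In 6 members an H3K79me2 peak began just after the start site. At the 6 members with a start in the RefSeq table that lay under H3K4me3, the H3K4me3 peak reached 921 bp (FOSB) to 3434 bp (JUNB) upstream of the start and 2683 bp (FOSB) to 7114 bp (FOSL2) downstream. The first H3K79me2 peak downstream began 44 bp after the start in JUN, 54 bp in FOS, 95 bp in FOSL2, 146 bp in JUNB, 158 bp in FOSB and 374 bp in JUND. In 0 of the 6 did H3K79me2 cover the start itself. Separate H3K79me2 peaks also lay upstream at FOS, FOSL2 and JUND. The nearest measured 469 bp at 1.97-fold (FOS), 538 bp at 1.84-fold (FOSL2) and 497 bp at 2.36-fold (JUND). Over all 14802 start sites of protein-coding genes under H3K4me3, an H3K79me2 peak began within 1000 bp after the start at 44.2%, with a median distance of 276 bp and quartiles of 120 and 493 bp. It covered the start at 34.1%, and 21.7% had neither. This comparison too was added after the values were seen, and at FOSL1 the H3K79me2 peak ran 1268 bp past the high-coordinate end.

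**Figure D3:**
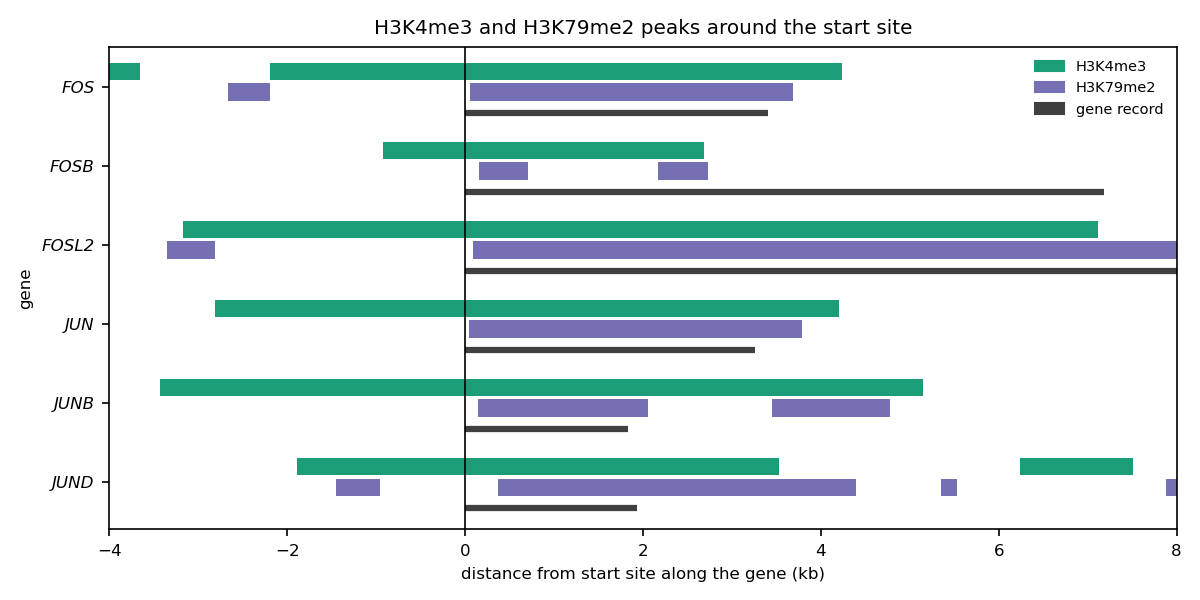
H3K4me3 and H3K79me2 peaks around the start site of 6 members, drawn along the direction of the gene in kb from the start, with the gene record under them. In every row H3K4me3 covers the start and an H3K79me2 peak begins to its right, 44 bp (JUN) to 374 bp (JUND) after it. Separate H3K79me2 peaks also lie to the left of the start at FOS, FOSL2 and JUND.

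ATF3 is a stress-induced gene whose product often represses, and it is known to use alternative promoters. Its record of 55371 bp held 4 H3K4me3 peaks of 299 to 4973 bp. The widest, at 18.9-fold, lay deep inside the record at chr1:212606556-212611528, rank 3760 in width and 3709 in fold over all genes. Neither of the 2 ATF3 starts in the RefSeq table lay under it, and H3K4me3 covered 0% of the 2000 bp around each. Starts of ATF3 that this table does not list were not examined, so the peak may cover one of those. Upstream of this peak and overlapping it lay an H3K27me3 peak of 4742 bp and 8.19-fold at chr1:212603476-212608217, rank 11 in width among the widest H3K27me3 peaks of all genes and rank 37 in fold. On the other side, H3K79me2 began inside the H3K4me3 peak and ran for 5606 bp at 2.49-fold. The 3 marks thus stood in the order H3K27me3, H3K4me3, H3K79me2 along the direction of transcription. H3K4me3 and H3K27me3 shared 2015 bp, H3K4me3 and H3K79me2 shared 2195 bp, and the large H3K27me3 peak shared 0 bp with H3K79me2. A small H3K27me3 peak of 353 bp at 3.92-fold lay inside the H3K79me2 peak. Over the whole record, H3K79me2 covered 10.1% and H3K27me3 15.4%.

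BATF and BATF3 encode small bZIP proteins that pair with JUN proteins, known from lymphocytes and dendritic cells. BATF3 had an H3K4me3 peak of 2921 bp and 12.1-fold at its high-coordinate end, from which it is known to be transcribed, at chr1:212698519-212701439. That peak lay wholly inside an H3K27me3 peak of 3147 bp and 10.02-fold at chr1:212698352-212701498. This H3K27me3 fold ranked 1 among the highest folds of all 19974 genes, in a list whose highest fold anywhere was 11.1. The next peak, of 912 bp, had 5.60-fold, and H3K27me3 peaks covered 36.1% of the record and 21.3% of the record and 10 kb. H3K79me2 had 0 peaks in the same window. H3K4me3 and H3K27me3 shared at least 500 bp at ATF3 and BATF3, 2 of 10 members, and at 4.59% of all genes. Whether the shared bases come from the same chromosomes or from different cells or alleles was not tested.

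BATF had no wide block of any mark. H3K4me3 was absent from the peak list within 10 kb of its start, and the call came from a peak of 1581 bp at 2.66-fold, 13134 bp inside the record (chr14:75535603-75537183), rank 15070 in fold. H3K79me2 covered 3.84% of the record in 2 peaks of 341 and 601 bp with folds of 1.93 and 2.03, and H3K27me3 in the record was a peak of 165 bp at 1.92-fold. The smallest folds in the whole lists were 1.41 for H3K4me3, 1.27 for H3K79me2 and 1.23 for H3K27me3. BATF thus carried neither the strong H3K4me3 of the FOS and JUN genes nor the H3K27me3 of BATF3.

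**Figure D4:**
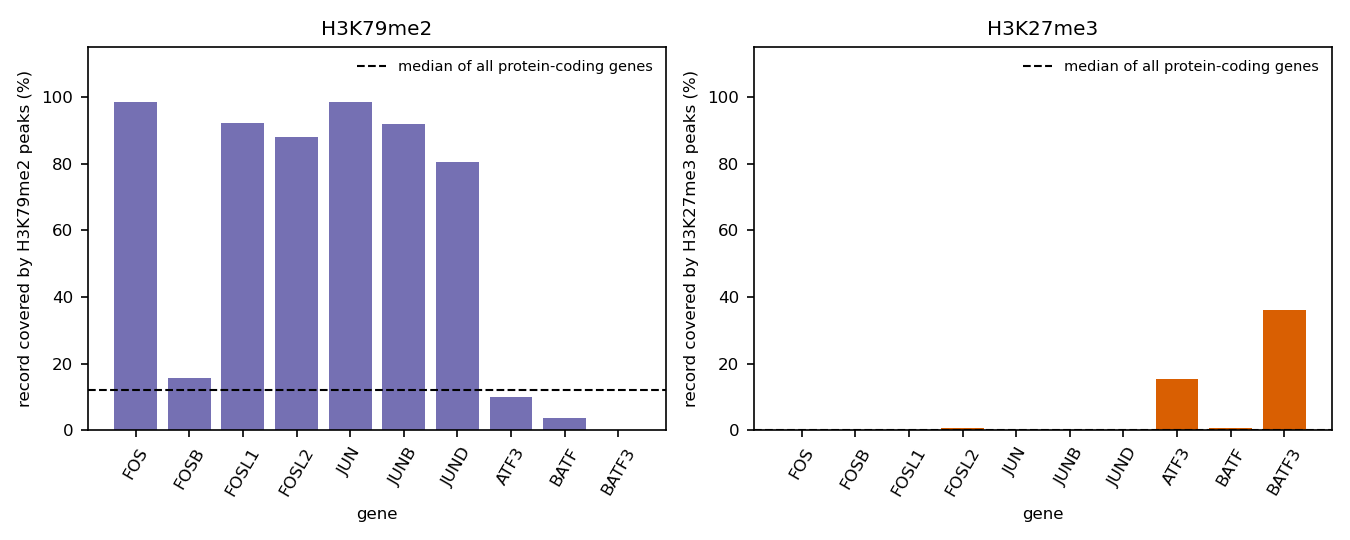
Share of each member's record covered by H3K79me2 peaks (left) and by H3K27me3 peaks (right), in percent, with the median over all protein-coding genes as a dashed line. FOS, FOSL1, FOSL2, JUN, JUNB and JUND lie between 80.6% and 98.6% for H3K79me2, and ATF3 (15.4%) and BATF3 (36.1%) stand out for H3K27me3.

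Stricter peak thresholds changed the members called for H3K79me2 more than those for the other marks. With peaks of -log10 q of at least 1.3, H3K4me3 was called at 10 members (73.8% of all genes), H3K79me2 at 6 (32.1%) and H3K27me3 at 2 (14.0%). At -log10 q of at least 5, H3K4me3 was called at 9 (69.5% of all genes), with BATF lost, and H3K27me3 at ATF3 and BATF3 (2.58%). H3K79me2 was then called at FOSL1 and FOSL2 (10.6% of all genes). At fold of at least 5, H3K4me3 was called at 9 members (68.2%), H3K27me3 at ATF3 and BATF3 (4.09%) and H3K79me2 at FOSL2 (3.06%).

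Among the members, FOS and BATF lie close together in the genome, as do ATF3 and BATF3. BATF lies 240238 bp from FOS on chromosome 14, with JDP2, a related bZIP gene, as the protein-coding gene between them. H3K79me2 covered 15.0% of that stretch and 68.5% of JDP2, while BATF beyond it had 3.84%. BATF3 lies 65639 bp from ATF3 on chromosome 1, and both carried strong H3K27me3, yet the stretch between them was 2.05% covered by H3K27me3, against 3.22% of the chromosome up to its last peak. The 7 H3K27me3 peaks there were at most 226 bp wide, so no wide block joined the H3K27me3 of ATF3 to that of BATF3. The stretch, which holds the protein-coding gene GARIN4 at 3696 bp from ATF3, had 0 peaks of H3K79me2.

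Around the family, 74 genes in 4 lists were examined in the same way: 19 partner bZIP genes, 22 upstream kinases and factors, 13 other immediate-early genes and 20 genes known as AP-1 targets. H3K4me3 was called at 69 of the 74, H3K79me2 at 55 and H3K27me3 at 10. The percentages of all genes given above hold for these counts too. Widths given for these genes are of whole peaks, which can reach past the record and its 1000 bp flanks. H3K4me3 covered 4962 bp of the record and flanks at DDIT3, 5100 bp at DUSP1 and 4525 bp at ZFP36. This is less than the width of their widest peaks given below, so those widths cannot be assigned to these 3 genes alone.

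Among partner bZIP genes, H3K4me3 was called at 19 of 19, H3K79me2 at 17 and H3K27me3 at 1. NFE2L2, the regulator of the oxidative stress response, had an H3K4me3 peak of 17181 bp and H3K79me2 over 99.8% of its record. NFE2L1 (12338 bp and 94.6%), the unfolded protein response gene DDIT3 (9941 bp) and ATF4 (98.3%) followed. MAF had 50540 bp of H3K27me3 in its record and flanks, which covered 12.7% of the record. H3K79me2 was not called at MAF, with 0.0754% of the record covered, nor at BATF2, a relative of BATF, with 16.8%. BATF2 had an H3K4me3 peak of 691 bp and 3.96-fold. BATF, BATF2 and BATF3 were all without a call for H3K79me2, as were most genes, since 42.0% of all genes were called. The 16.8% at BATF2 was above the median of 12.0% over all genes.

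The upstream list runs from EGFR through RAS and the MAP kinases to ELK and SRF, which drive FOS. H3K4me3 was called at 22 of the 22, H3K79me2 at 20 and H3K27me3 at 7. MAPK10 (9845 bp) and MAP2K1 (6995 bp) had the widest H3K4me3 peaks. H3K79me2 covered 91.3% of ELK4, 88.9% of MAP2K1 and 88.8% of MRTFA. MAPK3, which encodes ERK1, had 0% and MAPK10, the JNK gene known from neurons, 1.49%. Of the 7 genes with H3K27me3, RPS6KA3 on chromosome X had 26183 bp in its record and flanks and 22.1% of the record covered, while EGFR, BRAF, MAP2K4, MAPK8, MAPK10 and MRTFA had 523 to 2439 bp, under 1% of theirs.

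Of the 13 other immediate-early genes, H3K4me3 was called at 13, H3K79me2 at 9 and H3K27me3 at 2. KLF6 (11707 bp), the MAP kinase phosphatase gene DUSP1 (9224 bp) and ZFP36 (8465 bp) had the widest H3K4me3 peaks. H3K79me2 covered 100% of ZFP36 and BTG2 and 95.6% of IER5. EGR2 (0%), EGR3 (0%), NR4A1 (1.25%) and CCN2 (15.6%) were without a call for H3K79me2, and EGR3 and NR4A1 were the genes with H3K27me3, over 1401 and 1364 bp.

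Among the 20 AP-1 target genes, H3K4me3 was called at 15, H3K79me2 at 9 and H3K27me3 at 0. AREG, which encodes the EGFR ligand amphiregulin, had the widest H3K4me3 peak (14654 bp), ahead of CD44 (8624 bp) and HBEGF (7388 bp). H3K79me2 covered 85.9% of AREG, 82.1% of CD44 and 79.6% of VEGFA. The collagenase and stromelysin genes MMP1, MMP10 and MMP13 had 0 bp of H3K4me3 and H3K79me2, and SPP1 and IVL, with 317 and 451 bp of H3K4me3 covered, were also without a call. These 5 genes had no H3K27me3 call either.

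**Figure D5:**
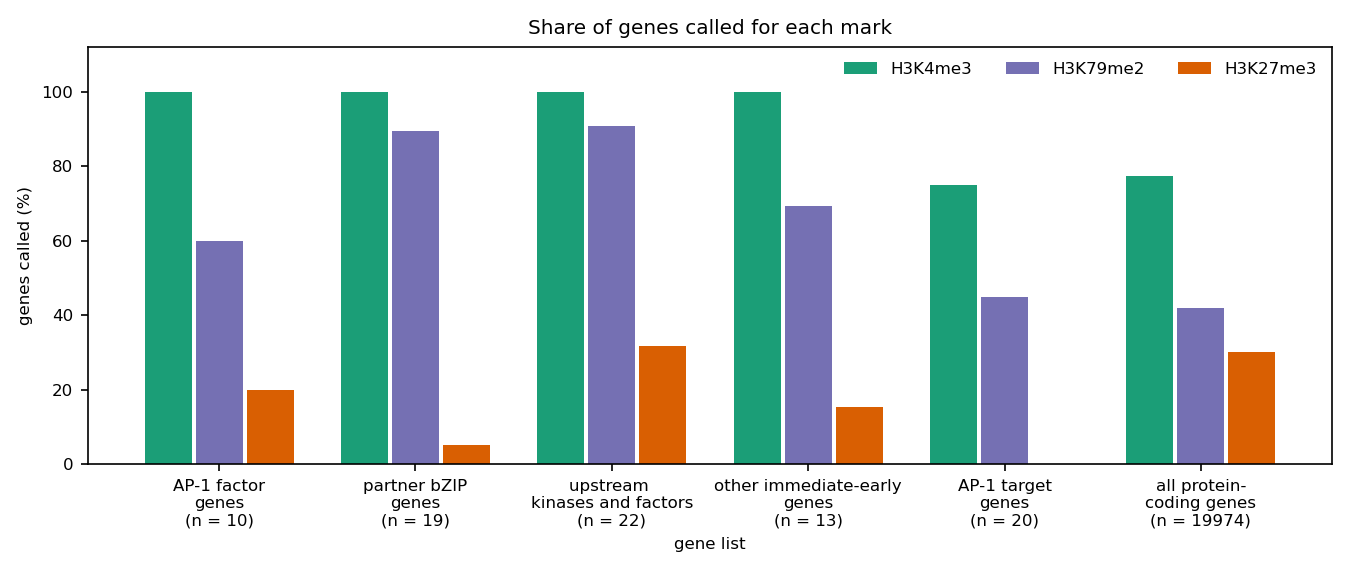
Share of genes called for H3K4me3, H3K79me2 and H3K27me3 (bars, percent) in the AP-1 factor genes, the 4 related lists and all protein-coding genes, with the number of genes under each group. H3K4me3 reaches 100% in 4 of the 5 lists, and H3K79me2 is called at 6 of the 10 AP-1 factor genes against 42.0% of all genes.

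As a check of the labelled cell type, H3K4me3 was called at 5 of 5 basal epithelial markers (KRT5, KRT14, TP63, EGFR and CDH3) and H3K79me2 at 4, with TP63 at 22.1% of its record. H3K27me3 was also called at 2 of these 5, over 0.276% of the TP63 record and 0.372% of the EGFR record. Of 5 markers of blood, endothelial and fibroblast cells (PTPRC, CD3E, PECAM1, COL1A1 and COL3A1), H3K4me3 was called at 3, at 2.65- to 9.97-fold, and H3K79me2 at 0, with PECAM1 at 4.70% of its record. H3K27me3 was called at 1 of them, CD3E, over 10.8% of its record, so the H3K27me3 calls did not separate the marker groups in the direction of the label. Over all genes, the shares called were 77.3% for H3K4me3, 42.0% for H3K79me2 and 30.2% for H3K27me3. The peak lists held 67781 H3K4me3, 112731 H3K79me2 and 393202 H3K27me3 peaks on the chromosomes analysed, with a median H3K27me3 width of 213 bp.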

How the data were processed

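Peak lists of 3 ChIP libraries, 1 per mark, were used as deposited. Per the submitters' processing notes, Bowtie2 2.3.1, MACS2 2.1.1 and hg38 were used; settings, the use of the input and the treatment of duplicates are not given in the sources used here. Per the file headers and layout, peak names carry a p threshold of 0.05, H3K4me3 and H3K79me2 lists are broad peaks and the H3K27me3 list narrow peaks. The authors' fold is a linear ratio of peak signal to what the caller took as background, and the deposited -log10 p and -log10 q are the caller's. Folds were ranked within a list only. Broad and narrow calling give different widths, so widths were not compared between marks.

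Records came from RefSeq (GRCh38.p14), and start sites and promoters from the RefSeq promoter table. Coverage, widest peak and highest fold were computed with Python 3.11.15, numpy 2.4.6 and pandas 2.3.3, and drawn with matplotlib 3.10.9. The interval functions were tested on simulated data against a count base by base in 2000 windows, with 0 mismatches. No test was made across genes, as each mark has 1 library. The members and lists were chosen with earlier results of these data known. Named genes were the 10 members, coding genes within 10000 bp, and in each list the 3 widest in H3K4me3, the 3 most covered by H3K79me2, those called for H3K27me3 and exceptions where 5 or fewer. A gene that this rule names among the upstream genes is not reported here. JDP2 was named after its values were seen. Alternatives covered peak thresholds, covered length, windows, background genes and joined peaks.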

Additional observations from a re-analysis of the deposited data

How the results depend on the processing

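The count of members with H3K4me3 was 8 to 10 under every alternative except 25% of the 2000 bp around a start site. There it was 6 of the 8 members with a start (70.7% of all genes with one). The count was 8 with 25% at either end of the record (67.9% of all genes) and 10 with 10000 bp on each side (83.6%). H3K79me2 members numbered 2 once peaks had -log10 q of 5 or more (10.6% of all genes) and 1 once they had 5-fold or more (3.06%). Otherwise they numbered 4 with 10000 bp on each side (38.5%), 9 at 1 bp covered (69.0%) and 6 in the rest. The shares of all genes beside those 6 ran from 27.4% (50% covered) to 50.9% (25% at either end of the record). H3K27me3 members numbered 4 at 1 bp covered (55.4% of all genes), 1 with 25% at either end of the record (9.10%, BATF3) and 0 of 8 around a start site (7.46%). For the last setting BATF3 has no listed start, and both listed ATF3 starts had 0% covered. Of the 74 related genes, H3K79me2 was called at 16 under the same q limit and 5 under the same fold limit. Their 10 with H3K27me3 became 4 for -log10 q of 1.3 or more (14.0%), 0 for 5 or more (2.58%), 1 for 5-fold or more (4.09%), 26 at 1 bp covered, 6 at 1000 bp covered (20.8%), 22 with 10000 bp on each side (43.5%), 1 at either end and 1 of 57 around a start site. Joining peaks across 1000 bp widened the H3K4me3 block of JUNB to 10909 bp and left the widest H3K4me3 peak of the other 9 members as it was. The cause of these shifts was not tested. No paired analysis was possible because each mark has 1 library. Depth is unknown, and a gene without a peak may hold the mark below what the caller reports.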

Other observations

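Beyond the genes themselves, several H3K4me3 peaks lay within 10 kb of a member but outside its record. At FOSB a peak of 1916 bp and 8.17-fold lay 2546 bp past the gene, over the selenocysteine tRNA gene TRU-TCA1-1. At ATF3 a peak of 1396 bp and 15.6-fold lay 5909 bp before the record, with no H3K79me2 within it. At JUNB a peak of 2599 bp and 23.5-fold lay over the PRDX2 end of the window, together with 3234 bp of H3K79me2 at 3.86-fold, a higher fold than the 3.28 at JUNB itself. At JUND a peak of 2427 bp and 12.2-fold lay 9685 bp from the gene. These peaks were singled out after their values were seen.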
